A study of Mus musculus with 9 samples.

Results

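The NR4A nuclear receptors and the EGR zinc finger factors are transcription factors whose genes are switched on within a short time of T cell receptor (TCR) engagement. The 6 genes Nr4a1, Nr4a2, Nr4a3, Egr1, Egr2 and Egr3 were selected by symbol from the 39253 genes of the count table, and each symbol had a single row. They were picked with their knockout and wildtype levels in these libraries already known, so the genotype differences of the 6 genes are given as descriptions without a test. The libraries came from CD4+ T cells of mice on day 9 of experimental autoimmune encephalomyelitis (EAE), an autoimmune inflammation of brain and spinal cord that is induced in mice. Of these, 5 were labelled estrogen receptor alpha (ERα) knockout (ERα KO), with replicates 1, 2 and 3 in batch 1 and replicates 4 and 5 in batch 2. The 4 libraries labelled wildtype had replicates 1 and 2 in batch 1 and replicates 3 and 4 in batch 2. All 9 came from mice with EAE, and ERα knockout was the only allele named. The series concerns ERα signalling in dendritic cells, but it is not stated by the labels which cells lost the receptor, which tissue the T cells came from, or the age, strain or sex of the mice. Batch is the submitters' word, and what it stood for was not stated.

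In a T cell, signals from the receptor pass through calcineurin with NFAT and through RAS with ERK, and both routes lead to these genes. NR4A proteins bind DNA without a known activating hormone, take part in negative selection, tolerance, exhaustion and regulatory T cell identity, and Nr4a1 reporters are used to read out recent antigen receptor signalling. EGR1 sits downstream of ERK and serum response factor, while EGR2 and EGR3 are calcineurin-dependent and drive brakes on T cell activation such as Cblb and diacylglycerol kinases.

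Total estimated counts ran from 4926347 to 11296593 in batch 1 and from 45013017 to 69844721 in batch 2. The 6 genes were counted well in all 9 libraries, with the lowest value 64 counts for Nr4a2 in ERα KO replicate 3. Levels are given as CPM, the share of the library's counts taken by a gene on the usual per-million scale. They were not divided by transcript length and are therefore compared between libraries and not between genes. Esr1, which encodes ERα, stood at 0.143 and 0.256 CPM in ERα KO replicates 4 and 5, against 1.45 and 1.69 CPM in wildtype replicates 3 and 4. In batch 1 it stood at 6.31 to 13.0 CPM in ERα KO and 4.87 to 16.2 CPM in wildtype libraries. The ranges overlapped, so the batch 1 Esr1 level did not check the genotype labels. Batch 1 also had counts in 1508 odour, taste and other receptor genes that are normally silent in T cells. They took 0.0574% to 0.255% of all counts there against 0.00258% to 0.0037% in batch 2. The part of such counts in the batch 1 Esr1 level was not tested. The 7 CD4 T cell markers in the table, of a list of 10, were present in every library, with summed levels of 3063 to 3298 CPM in ERα KO against 3541 to 3795 CPM in wildtype libraries of batch 1, and 4514 to 4531 against 3959 to 4266 CPM in batch 2. Xist stood at 1740 to 2680 CPM in 4 batch 1 libraries, at 30.4 CPM in ERα KO replicate 3 and at 0 to 0.289 CPM in batch 2. Ddx3y, which lies on the Y chromosome, stood at 93.6 to 107 CPM in batch 2, at 55.4 CPM in ERα KO replicate 3 and at 0 in the other 4 libraries of batch 1. By these genes batch 2 was male and batch 1 was female apart from ERα KO replicate 3, which had Ddx3y and a low Xist level. Sex and batch therefore cannot be told apart in the batch comparison, and ERα KO differed in sex from wildtype within batch 1 by that library. Without it, the batch 1 log2 fold changes of ERα KO over wildtype were -0.49 for Nr4a1, -0.69 for Nr4a3, -0.39 for Egr1, 0.07 for Nr4a2, 0.10 for Egr2 and 0.06 for Egr3. Nothing in the labels ties a library to an animal, so the spread between replicates may be technical in part. In bulk RNA, fewer cells of a type and less RNA per cell cannot be told apart.

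The stretches before the transcription starts of 4 of the 6 genes are shown first, while Egr1 and Egr3 had no window. Whether shared letters bear on the levels of these genes was not tested. The stretches are 5′ to 3′ on the gene's own strand, from RefSeq (GRCm38.p6), with bases of the annotated exons left out. Capitals mark the short form TGACG of the cyclic AMP response element (CRE), the EGR site GCGNGGGCG, the MEF2 site or the CArG box, each searched on both strands. The Nr4a1 window is chr15:101266596-101266845 on the plus strand, the Nr4a2 window chr2:57124004-57124253 on the minus strand, the Nr4a3 window chr4:48045055-48045152 on the plus strand, and the Egr2 window chr10:67537619-67537868 on the plus strand, 1 of 5 Egr2 windows in the table.
Nr4a1: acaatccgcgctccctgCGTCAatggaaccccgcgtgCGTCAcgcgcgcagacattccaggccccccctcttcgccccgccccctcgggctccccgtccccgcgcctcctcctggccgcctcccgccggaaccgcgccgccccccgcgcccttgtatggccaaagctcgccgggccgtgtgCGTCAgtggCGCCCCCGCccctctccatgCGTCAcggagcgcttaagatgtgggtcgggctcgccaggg
Nr4a2: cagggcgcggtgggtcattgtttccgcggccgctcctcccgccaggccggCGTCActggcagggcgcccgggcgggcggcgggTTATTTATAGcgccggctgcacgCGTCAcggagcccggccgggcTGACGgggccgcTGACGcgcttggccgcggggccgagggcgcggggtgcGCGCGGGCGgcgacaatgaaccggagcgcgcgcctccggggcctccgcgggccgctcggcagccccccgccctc
Nr4a3: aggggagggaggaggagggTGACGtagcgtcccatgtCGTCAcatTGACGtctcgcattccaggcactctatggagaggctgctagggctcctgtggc
Egr2: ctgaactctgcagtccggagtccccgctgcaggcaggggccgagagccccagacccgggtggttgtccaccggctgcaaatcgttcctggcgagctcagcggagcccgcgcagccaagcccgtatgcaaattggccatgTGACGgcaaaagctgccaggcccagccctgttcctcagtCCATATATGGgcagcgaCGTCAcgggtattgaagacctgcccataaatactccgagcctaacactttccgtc

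Each of Nr4a1, Nr4a2 and Nr4a3 held 4 short CRE forms in the 250 bases before its start, of which 3 fall in the shorter Nr4a3 stretch printed. Across 32817 windows of 250 bases, 17.7% held at least 1 short form and 0.137% held at least 4. The Egr2 window had 2 short forms and 1 CArG box, the element bound by serum response factor, which 1.47% of windows had. Of the 5 Egr2 windows, 3 that overlap, the printed one among them, held these matches, 1 held the CArG box alone and 1 held none of the motifs searched. An EGR site lay in the Nr4a1 and Nr4a2 windows (4.7% of windows) and a MEF2 site in the Nr4a2 window (2.92%). The full CRE TGACGTCA, which contains the short form, was in none of the windows of these 4 genes (1.55% of all windows), and neither was the NR4A site AAAGGTCA (1.34%). The shares were not matched on base composition, and a match shows only that the letters are present.

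Nr4a1, which encodes NUR77 and is the family member used most as a TCR signal reporter, was below wildtype in every ERα KO library of each batch. In batch 1 it stood at 279, 361 and 204 CPM in ERα KO replicates 1 to 3, against 455 and 418 CPM in wildtype replicates 1 and 2. In batch 2 it stood at 109 and 90.4 CPM in ERα KO replicates 4 and 5, against 387 and 178 CPM in wildtype replicates 3 and 4. The wildtype libraries of batch 2 were thus far apart, while the ERα KO libraries of that batch were close together and were the lowest of all 9. Group means were 281 ± 78.8 CPM (SD, n = 3) against 436 ± 25.8 CPM (SD, n = 2) in batch 1, and 99.5 ± 12.9 CPM against 283 ± 148 CPM in batch 2 (SD, n = 2 each). The ratio of the ERα KO mean to the wildtype mean was 0.645 in batch 1 and 0.352 in batch 2. From the highest, the 4 groups ran wildtype batch 1, wildtype batch 2, ERα KO batch 1 and ERα KO batch 2. Neither the wildtype pair nor the middle pair differed beyond their spread. The fitted log2 fold change was -0.75 ± 0.37 (SE) in batch 1 and -1.52 ± 0.46 (SE) in batch 2. It was -0.80 in batch 2 without wildtype replicate 3 and -2.00 without wildtype replicate 4. In batch 1 it was -0.49 without ERα KO replicate 3 and -1.02 without ERα KO replicate 2, so single libraries set much of its size.

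Nr4a3, which encodes NOR1 and is strongly calcineurin-dependent in T cells, gave the most even pair of differences. In batch 1 it had 114, 149 and 84.8 CPM in ERα KO replicates 1 to 3, against 169.5 and 248.5 CPM in wildtype replicates 1 and 2. In batch 2 it had 66.7 and 48.1 CPM in ERα KO replicates 4 and 5, against 119 and 82.4 CPM in wildtype replicates 3 and 4. No ERα KO library reached a wildtype library of its own batch. The means were 116 ± 32.1 CPM (SD, n = 3) against 209 ± 55.8 CPM (SD, n = 2) in batch 1 and 57.4 ± 13.2 CPM against 101 ± 25.8 CPM (SD, n = 2 each) in batch 2. ERα KO was thus at 0.554 of wildtype in batch 1 and 0.57 in batch 2. The ERα KO mean of batch 1 and the wildtype mean of batch 2, the middle pair of the 4 group means, did not differ beyond their spread. The fitted log2 fold changes were -0.93 ± 0.37 and -0.82 ± 0.27 (SE), and the batch 2 value was -0.48 without wildtype replicate 3.

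Nr4a2, which encodes NURR1, was separated by genotype in batch 2 only. There it had 3.52 and 4.63 CPM in ERα KO replicates 4 and 5, against 21.4 and 13.1 CPM in wildtype replicates 3 and 4. In batch 1 it had 14.6, 34.2 and 12.6 CPM in ERα KO replicates 1 to 3, against 19.5 and 26.6 CPM in wildtype replicates 1 and 2. ERα KO replicate 2 had the highest level of all 9 libraries, and the batch 1 groups overlapped. Group means were 20.5 ± 11.9 CPM (SD, n = 3) against 23.0 ± 5.03 CPM (SD, n = 2) in batch 1 and 4.07 ± 0.789 CPM against 17.2 ± 5.84 CPM (SD, n = 2 each) in batch 2. Of the 4 group means, ERα KO in batch 2 stood apart, and the other three lay within each other's spread. The log2 fold change was -0.23 ± 0.40 (SE) in batch 1, with -0.91 without ERα KO replicate 2 and 0.07 without ERα KO replicate 3. In batch 2 it was -2.09 ± 0.34 (SE), and between -2.43 and -1.65 when any library was left out.

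Egr1, the ERK-responsive member, followed Nr4a1 and Nr4a3 with a smaller difference. It had 188, 217 and 166 CPM in ERα KO replicates 1 to 3, against 262 and 254 CPM in wildtype replicates 1 and 2. In batch 2 it had 198 and 164 CPM in ERα KO replicates 4 and 5, against 244 and 214 CPM in wildtype replicates 3 and 4. All 5 ERα KO libraries were therefore at or below 217 CPM and all 4 wildtype libraries were at or above 214 CPM, with ERα KO replicate 2 and wildtype replicate 4 meeting across batches. The means were 190.3 ± 25.6 CPM (SD, n = 3) against 258 ± 5.305 CPM (SD, n = 2) in batch 1 and 181 ± 23.6 CPM against 229 ± 21.35 CPM (SD, n = 2 each) in batch 2. From the highest, the groups ran wildtype batch 1, wildtype batch 2, ERα KO batch 1 and ERα KO batch 2. Neither the middle pair nor the ERα KO pair differed beyond their spread. The ratio of means was 0.737 in batch 1 and 0.79 in batch 2. The fitted log2 fold change was -0.57 ± 0.37 (SE) in batch 1 and -0.34 ± 0.15 (SE) in batch 2. It was -0.37 in batch 1 without wildtype replicate 1 and -0.20 in batch 2 without wildtype replicate 3.

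Egr2 and Egr3, the calcineurin-dependent members, showed no such separation. Egr2 had 26.9, 31.2 and 27.4 CPM in ERα KO replicates 1 to 3, against 25.4 and 27.4 CPM in wildtype replicates 1 and 2. In batch 2 it had 28.3 and 23.4 CPM in ERα KO replicates 4 and 5, against 25.1 and 26.7 CPM in wildtype replicates 3 and 4. The groups overlapped in each batch and the 9 libraries spanned only 23.4 to 31.2 CPM, the narrowest relative range of the 6 genes. Egr3 had 36.3, 44.8 and 36.5 CPM in ERα KO replicates 1 to 3, against 35.8 and 40.6 CPM in wildtype replicates 1 and 2. Egr3 in batch 2 had 57.5 and 41.2 CPM in ERα KO replicates 4 and 5, against 35.2 and 55.6 CPM in wildtype replicates 3 and 4. Wildtype replicate 3, the batch 2 wildtype library with the higher Nr4a1, Nr4a2, Nr4a3 and Egr1, was the one with the lower Egr2 and Egr3. Fitted log2 fold changes of Egr2 were -0.02 ± 0.36 in batch 1 and 0.00 ± 0.16 in batch 2, and those of Egr3 were -0.09 ± 0.36 and 0.14 ± 0.26 (SE). With such errors, differences of the size of the SE in either direction cannot be told from 0. The means of Egr2 were 28.5 ± 2.37 CPM in ERα KO (SD, n = 3) and 26.4 ± 1.41 CPM in wildtype (SD, n = 2) in batch 1, and 25.8 ± 3.48 and 25.9 ± 1.14 CPM in batch 2 (SD, n = 2 each). Those of Egr3 were 39.2 ± 4.825 and 38.2 ± 3.42 CPM in batch 1 and 49.4 ± 11.5 and 45.4 ± 14.4 CPM in batch 2, so for neither gene did any of the 4 group means differ from its neighbours beyond their spread.

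**Figure D1:**
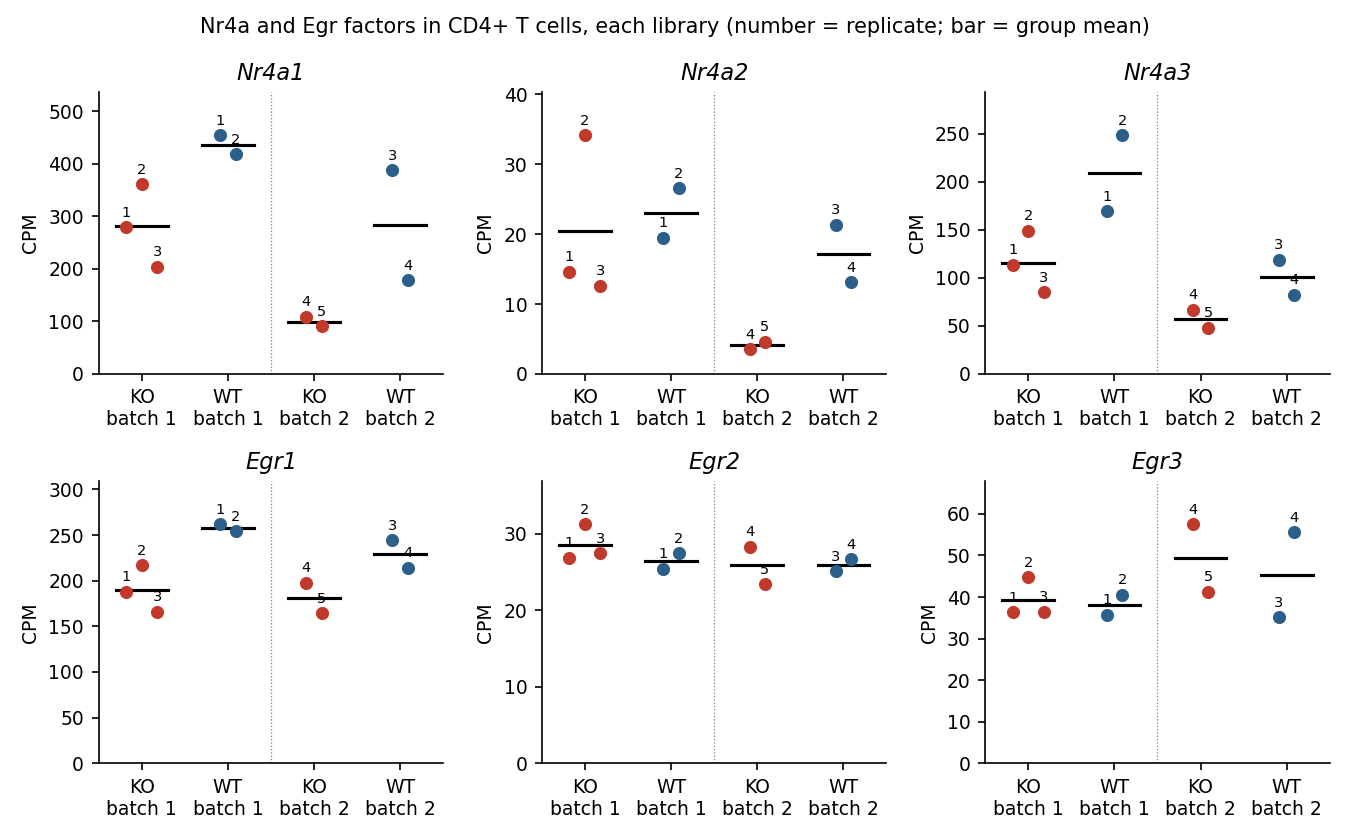
CPM of the 6 genes in each of the 9 libraries, by genotype and batch (KO, ERα knockout; WT, wildtype); points are libraries with their replicate number, bars are group means, and each y axis starts at 0. The ERα KO points lie below the wildtype points of the same batch for Nr4a1, Nr4a3 and Egr1, in batch 2 only for Nr4a2, and overlap them for Egr2 and Egr3.

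Taking the 6 genes as a set, 3 of 6 (Nr4a1, Nr4a3 and Egr1) had every ERα KO library below every wildtype library in each batch, against 1.07% of the 15288 genes that could be tested in both batches. In batch 1 alone it was the same 3 of 6, against 5.19% of 24600 genes, and in batch 2 it was 4 of 6 with Nr4a2, against 20.5% of 15910 genes. The share of genes higher without overlap, as 0 of the 6 were, was 10.9% in batch 1 and 19.6% in batch 2. The genes were selected for these differences, so the shares give the background and nothing is read from the excess. The count depended on the scaling of the libraries. It was 3 with DESeq2 size factors, 2 with upper-quartile factors (Nr4a1 and Nr4a3) and 1 with TMM factors (Nr4a3), which gave ERα KO replicate 3 a factor of 1.727. With TMM factors the highest ERα KO and the lowest wildtype library of batch 1 stood at 339 and 331 CPM for Nr4a1 and at 204 and 201 CPM for Egr1. The fitted log2 fold changes of Nr4a1, Nr4a3 and Egr1 were negative in every one of 17 alternatives over both batches, 11 in batch 1 and 9 in batch 2. Summed over the 6 genes, the level was 531 to 837 CPM in ERα KO against 967 to 1016 CPM in wildtype libraries of batch 1, and 372 to 462.5 CPM against 570 to 832 CPM in batch 2.

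Over both batches, with batch in the model, the fitted log2 fold changes were -1.06 ± 0.28 for Nr4a1, -1.09 ± 0.47 for Nr4a2, -0.85 ± 0.20 for Nr4a3, -0.42 ± 0.13 for Egr1, 0.04 ± 0.12 for Egr2 and 0.06 ± 0.16 for Egr3 (SE). The difference between batches in the fold change, batch 2 minus batch 1, was -1.92 ± 0.64 for Nr4a2 and -0.86 ± 0.51 for Nr4a1. It lay between -0.08 and 0.13 for the other four. The Nr4a1 value was -0.10 without wildtype replicate 3.

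**Figure D2:**
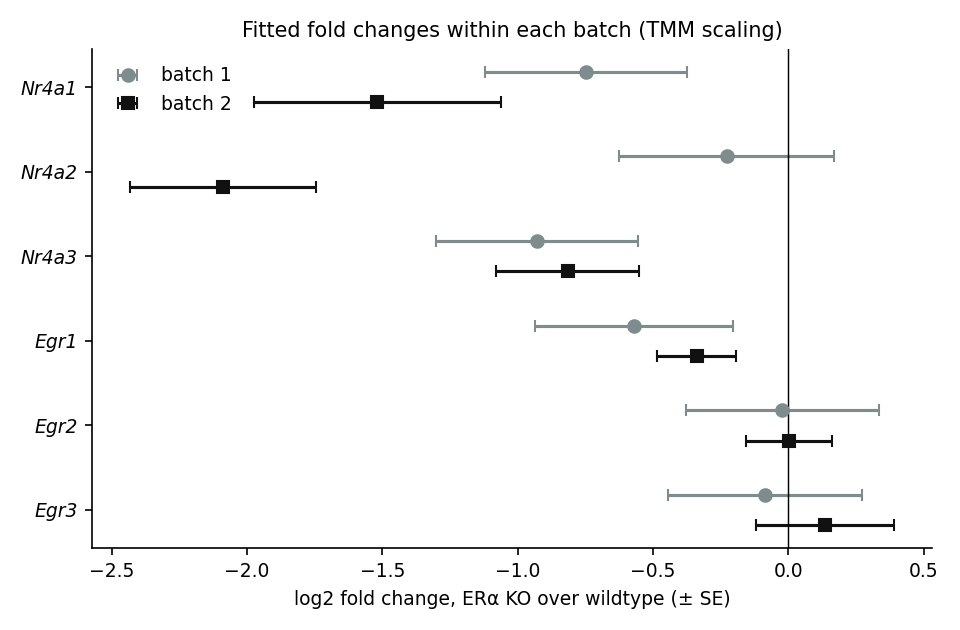
Fitted log2 fold change of ERα KO over wildtype (x axis) for each of the 6 genes (y axis) in batch 1 (grey circles) and batch 2 (black squares), with SE bars. Nr4a3 and Egr1 have alike values in both batches, Nr4a1 and Nr4a2 are farther below 0 in batch 2, and Egr2 and Egr3 lie at 0 within their errors.

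Counts of one gene relative to another in the same library do not move with the scaling, so each gene was also set against Egr2, the steadiest of the 6. This denominator was chosen after the values were seen. The ratio of Egr1 to Egr2 counts was 6.05 to 7.03 in the 5 ERα KO libraries and 8.03 to 10.3 in the 4 wildtype libraries, with no overlap even across batches. For Nr4a1 the ratio to Egr2 was 7.43 to 11.6 in ERα KO against 15.3 to 17.9 in wildtype libraries of batch 1. In batch 2 the Nr4a1 ratio was 3.84 and 3.87 in ERα KO against 15.5 and 6.68 in wildtype replicates 3 and 4. For Nr4a3 it was 3.09 to 4.77 against 6.67 to 9.07 in batch 1, and 2.06 to 2.36 against 3.09 to 4.74 in batch 2, again with ERα KO first. Nr4a1, Nr4a3 and Egr1 thus had lower ratios to Egr2 in every ERα KO library than in any wildtype library of the batch, as did 1.08% of 15288 genes. For Nr4a2 the batch 1 ratios overlapped, at 0.46 to 1.1 in ERα KO and 0.767 to 0.97 in wildtype libraries, and the batch 2 ratios were 0.124 and 0.198 against 0.852 and 0.491. With Egr3 as the denominator, Nr4a1 and Nr4a3 were again lower in every ERα KO library of each batch, against 0.641% of genes. Egr1 over Egr3 overlapped in batch 2, at up to 3.99 in ERα KO and down to 3.85 in wildtype libraries. A ratio shows an unequal difference between genes and not which of them differed.

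**Figure D3:**
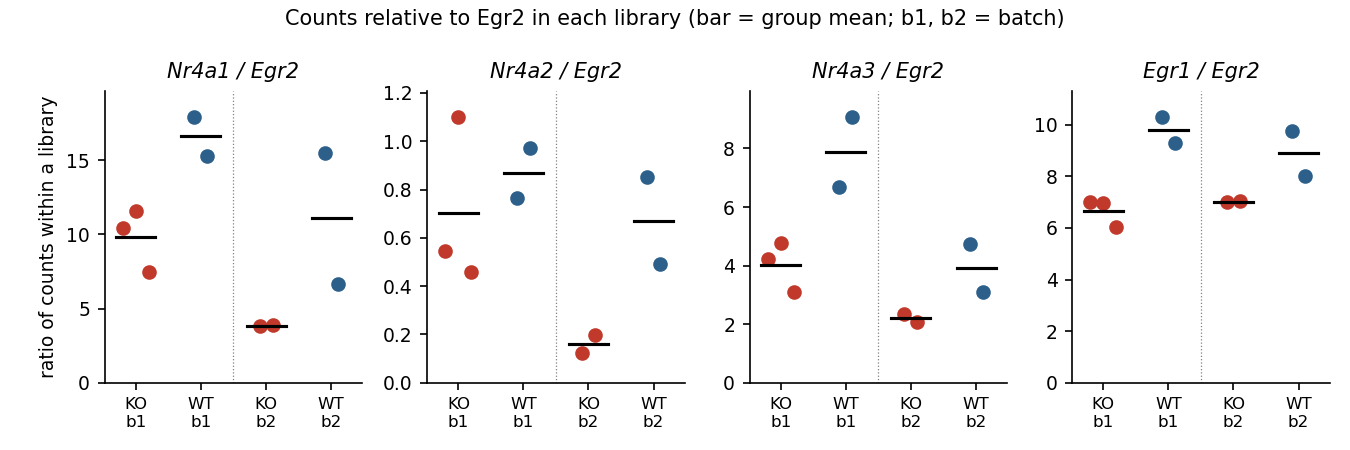
Counts of Nr4a1, Nr4a2, Nr4a3 and Egr1 divided by those of Egr2 in the same library (y axis), by genotype and batch (KO red, WT blue; points are libraries, bars are group means). The ratio of Egr1 to Egr2 is 6.05 to 7.03 in all ERα KO libraries and 8.03 to 10.3 in all wildtype libraries.

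The difference between batches was not used in choosing the genes, so it was tested, in the model with batch and genotype over all 9 libraries. The levels in these libraries were known when the genes were picked, so its p-values are not fully independent of the choice. Nr4a1, Nr4a2 and Nr4a3 were lower in batch 2 than in batch 1, Egr3 was higher, and Egr1 and Egr2 did not pass. Nr4a1 ranged from 90.4 to 387 CPM (median 143) in batch 2 and from 204 to 455 CPM (median 361) in batch 1. Nr4a3 ranged from 48.1 to 119 CPM (median 74.6) in batch 2 and from 84.8 to 248.5 CPM (median 149) in batch 1, and Nr4a2 had medians of 8.87 and 19.5 CPM. Egr3 had 35.2 to 57.5 CPM (median 48.4) in batch 2 and 35.8 to 44.8 CPM (median 36.5) in batch 1. The ranges of the 2 batches overlapped for each of these 4 genes. The log2 fold changes, batch 2 over batch 1, were -0.88 ± 0.29 for Nr4a1 (edgeR adjusted p = 0.0226), -1.22 ± 0.48 for Nr4a2 (0.0483), -0.81 ± 0.21 for Nr4a3 (0.00555) and 0.51 ± 0.16 for Egr3 (0.015). Egr1 had 0.10 ± 0.13 (edgeR adjusted p = 0.49) and Egr2 0.13 ± 0.12 (0.368).

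Against this, 64.1% of the 22197 genes passed the batch test, 47.3% lower and 16.8% higher, with -0.76 as the median over all genes on the log2 scale. The Nr4a values lay near that median, with 46.5% to 49.5% of genes having a smaller fold change, and 89.3% had a smaller value than Egr3. The median depended on the filter and was -3.76 without one. List medians were 0.62 for CD4 T cell markers, 0.41 for TCR and calcineurin signalling and 0.425 for TCR-induced genes. They were -0.40 for ERK brakes and -0.26 for AP-1 and other immediate early genes. Whether the Nr4a genes or Egr3 were displaced thus depended on the genes they were set against. The calls for the Nr4a genes were fragile. Without a low-count filter the adjusted p was 0.106 for Nr4a1, 0.0916 for Nr4a2 and 0.0971 for Nr4a3, and with a filter of 1 CPM it was 0.0799, 0.0776 and 0.0613 in that order. Leaving out wildtype replicate 2 ended all 3 calls (0.0651, 0.0657 and 0.135), as did leaving out ERα KO replicate 1 (0.0892, 0.0902 and 0.0513). Nr4a1 was also lost without ERα KO replicate 4 (0.0781) or 5 (0.0862). Nr4a2 was also lost with limma-voom (0.0698) and without wildtype replicate 4 (0.0882) or ERα KO replicate 3 (0.0656), 4 (0.177) or 5 (0.173). Egr3 did not pass with upper-quartile scaling (log2 fold change 0.31, edgeR adjusted p = 0.126), without wildtype replicate 1 (0.0911) or without ERα KO replicate 4 (0.0881). With upper-quartile scaling the values of Egr1 and Egr2 were -0.10 and -0.07. Depth, the counts in silent genes and the Xist level moved with batch, and their part in these differences cannot be told apart.

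To see which of the 6 genes varied together apart from genotype and batch, each library's log2(CPM + 1) was expressed as its deviation from the mean of its own genotype and batch. These deviations are values of 9 libraries around 4 group means, so those of a pair of libraries mirror each other, and all genes of a library share its depth and scaling. Pearson r was 0.65 to 0.84 for the 6 pairs among Nr4a1, Nr4a2, Nr4a3 and Egr1, and 0.83 for Egr2 with Egr3. The other 8 pairs, of Egr2 or Egr3 with one of the first 4, ran from -0.31 for Nr4a1 with Egr3 to 0.64 for Egr1 with Egr2. Nr4a3 with Egr2 had 0.62, so these pairs of Egr2 were close to the 0.65 of Nr4a2 with Egr1. For Nr4a1 with Egr2 it was 0.19. The low values of Nr4a1 depended on the wildtype libraries of batch 2. With wildtype replicate 3 left out, r was 0.63 for both pairs, and 0.99 for Egr2 with Egr3. Wildtype replicate 4 is then its own group mean and adds no spread, so this cannot tell the 2 libraries apart. Without ERα KO replicates 2 and 3, the libraries at the ends of the Nr4a2 range, r between Nr4a2 and Egr1 was 0.08, while it was 0.62 for Nr4a1 with Nr4a3 and 0.68 for Nr4a3 with Egr1. The deviations of Nr4a1 were 0.40 in ERα KO replicate 2 and -0.43 in ERα KO replicate 3, against 0.56 in wildtype replicate 3 and -0.56 in wildtype replicate 4.

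The mean deviation of 24 AP-1 and other immediate early genes (Fos, Jun, Ier2, Btg2 and the like) followed that of Nr4a1 with an r of 0.98, Egr1 with 0.85, Nr4a3 with 0.79 and Nr4a2 with 0.76, against 0.19 for Egr2 and -0.26 for Egr3. Without wildtype replicate 3 these values were 0.98, 0.88, 0.76, 0.75, 0.51 and 0.51. Leaving it out also takes the spread of wildtype replicate 4 away, here and below. Heat shock chaperones, which refold proteins under stress, had 0.76 with Nr4a1, 0.83 with Nr4a3 and 0.81 with Egr1. The 22 TCR-induced genes (Cd69, Myc, Irf4, Nfkbid and others) had only 0.23 with Nr4a1 and 0.19 with Nr4a3. That value was 0.84 for Nr4a1 without wildtype replicate 3 and -0.58 without ERα KO replicates 2 and 3, so it was not stable. The Nr4a genes and Egr1 are immediate early genes themselves and could have been placed in the first of these lists. Markers of other cells also varied with Nr4a1, with an r of 0.82 for erythroid and platelet, 0.79 for B cell, 0.64 for neutrophil and -0.61 for NK cell markers. NK cell markers had -0.61 with Nr4a2 and Nr4a3 and -0.82 with Egr1. Without wildtype replicate 3 the values with Nr4a1 were 0.50 for erythroid and platelet, 0.74 for B cell, 0.02 for neutrophil and -0.98 for NK cell markers. The variation shared with Nr4a1 was therefore not particular to immediate early and heat shock genes, and the part of other cells in it was not tested.

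**Figure D4:**
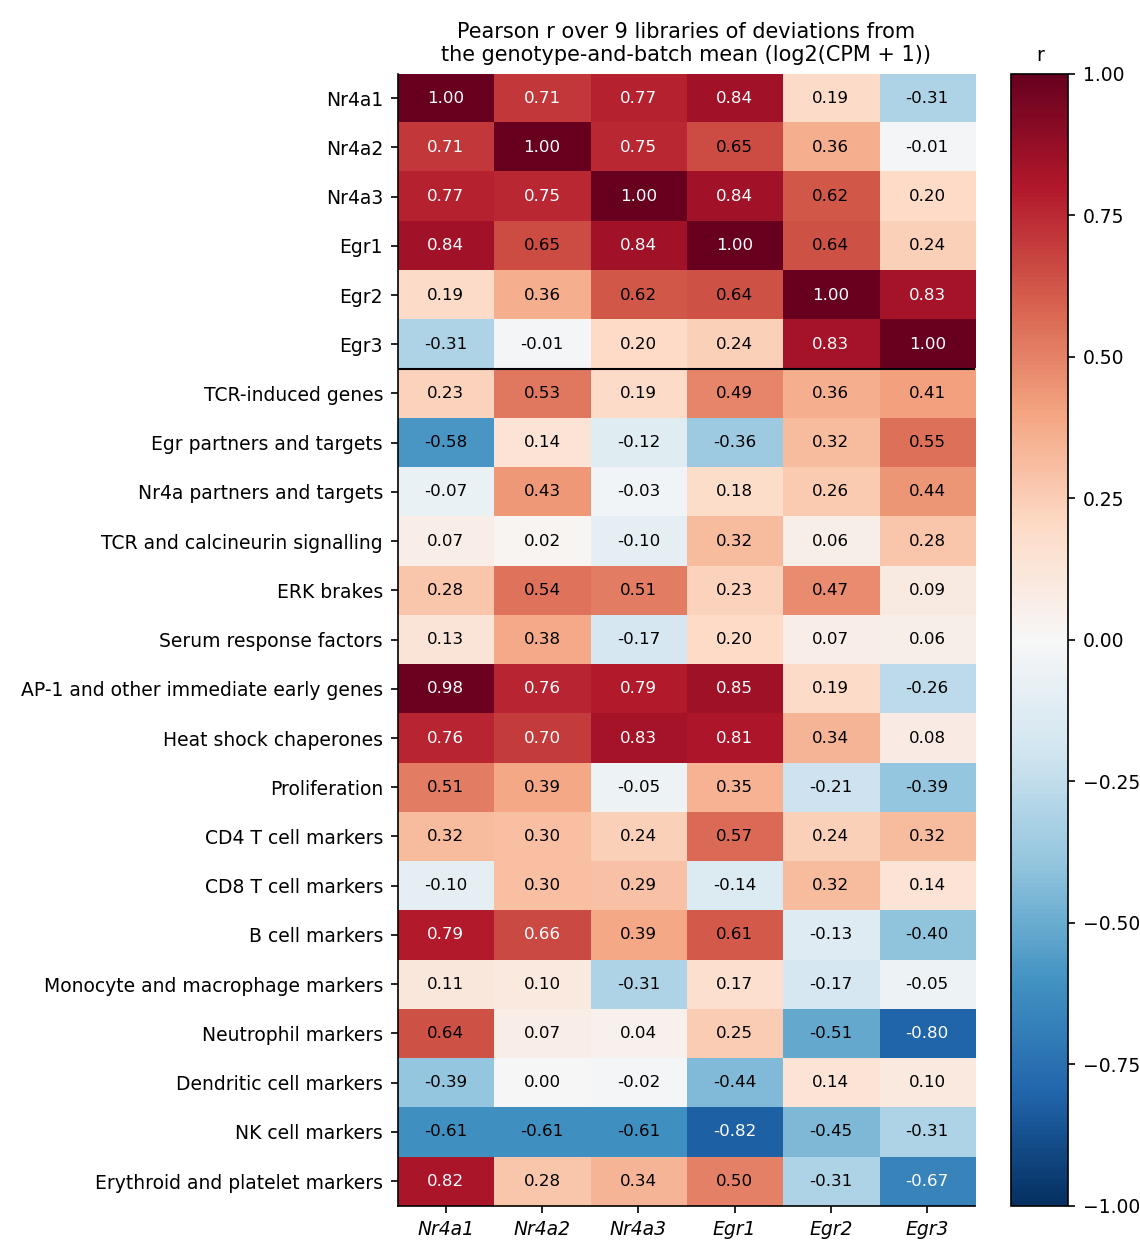
Pearson r, over 9 libraries, between deviations of log2(CPM + 1) from the genotype-and-batch mean, for the 6 genes (columns) against each other and against the mean deviation of 9 pathway lists and 8 marker lists (down the y axis); colour runs from -1 (blue) to 1 (red). The AP-1 list has 0.76 to 0.98 with Nr4a1, Nr4a2, Nr4a3 and Egr1, Egr2 has 0.83 with Egr3 and 0.64 with Egr1, and the marker lists run from -0.82 to 0.82.

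Among 8144 genes with at least 10 CPM on average in each batch, the 8 with deviations most like the mean of the 6 genes were Inpp5f (r = 0.999), Rpl22 (0.987), Rpia (0.985), Yrdc (0.983), Rsl1d1 (0.979), Ppp1r2 (0.971), Psmd4 (0.97) and Gnl2 (0.964), over 9 libraries. The gene ranked 100 still had an r of 0.863, and only 1 to 5 of the 8 stayed among the top 8 when any library was left out.

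The levels of other genes of the pathway were then compared between genotypes, by lists put together with earlier results of these data known. The edgeR test called 0 genes of the 9 lists over both batches (0.00451% of 22197 genes), in batch 1 (0.126% of 24600 genes, 0.0528% lower and 0.0732% higher) or in batch 2 (0% of 15910 genes). Limma-voom also called 0, against 0.00451%, 0.0488% and 0% of all genes. DESeq2 called 0.0721% of all genes over both batches, 0.13% in batch 1 and 2.07% in batch 2 (1.69% lower), and its calls are named with each list. An unadjusted edgeR p under 0.05 was reached by 2.36% of all genes over both batches, 1.97% in batch 1 and 7.77% in batch 2 (4.97% lower). At that p over both batches there were 2 AP-1 and immediate early genes, 1 NR4A partner and 1 ERK brake, and 0 in the other lists. In batch 1 the only one was Dusp5, an ERK brake, and in batch 2 there were 17 proliferation genes, 12 AP-1 and immediate early genes, and 1 to 4 in each other list. Of 21 tested TCR-induced genes, 10 had a positive and 11 a negative log2 fold change over both batches, with a median of -0.03 against 0.01 for all genes and -0.64 for the 6 NR4A and EGR genes. In batch 2, 4 of 22 had an unadjusted p under 0.05, all lower, and DESeq2 called these 4 (Nfkbid, Bhlhe40, Nfil3 and Gadd45b). Cd40lg, the helper ligand for B and dendritic cells, had -0.41 ± 0.20, the inhibitor Nfkbid -0.35 ± 0.18 and the cytokine regulator Bhlhe40 -0.62 ± 0.34. Cd69, an early activation marker looked at after its value was known, had -0.03 ± 0.12. The median of the TCR-induced list was thus near 0 over both batches, while its 4 DESeq2 calls in batch 2 were all lower. How this list relates to the lower values of Nr4a1, Nr4a3 and Egr1 was not tested.

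Partners and targets of the EGR factors (15 genes) had a median of -0.02, with 7 positive and 8 negative. Their members with the smallest p were Sema7a at -0.46 ± 0.36, the diacylglycerol kinase Dgkz at 0.09 ± 0.10 and Nab1, an EGR corepressor, at -0.11 ± 0.13. Partners and targets of the NR4A receptors (11 genes) had a median of 0.22 with 8 positive, that is, on the other side of 0 from the receptors. Among them Entpd1 (CD39) had 0.62 ± 0.28, the Foxp3 partner Ikzf4 0.36 ± 0.17 and Foxp3, the regulatory T cell factor, 0.31 ± 0.21. Havcr2 was called lower in batch 2 by DESeq2.

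TCR and calcineurin signalling genes (20) had a median of -0.04, with Ppp3ca, the catalytic subunit of calcineurin, at -0.27 ± 0.13, Mapk3 (ERK1) at 0.18 ± 0.12 and Ppp3cc at -0.17 ± 0.14. The list headed serum response factors (11 of 12 symbols in the table) also held CRE-binding factors such as Crem and MEF2 factors. It had a median of 0.03, with Crem at -0.22 ± 0.18, Mef2a at -0.14 ± 0.13 and Mrtfa at 0.11 ± 0.10. DESeq2 called Mef2d higher in batch 2. ERK brakes (10) had a median of -0.06. Dusp5, a phosphatase of the nucleus that inactivates ERK and is itself induced by it, had -0.86 ± 0.17. It stood at 49.9 to 76.2 CPM in ERα KO against 109 to 150 CPM in wildtype libraries of batch 1, and at 40.0 to 46.5 against 63.7 to 77.1 CPM in batch 2, and DESeq2 called it over both batches and in batch 2. Dusp10 had -0.21 ± 0.17 and Spred2 0.17 ± 0.14.

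**Figure D5:**
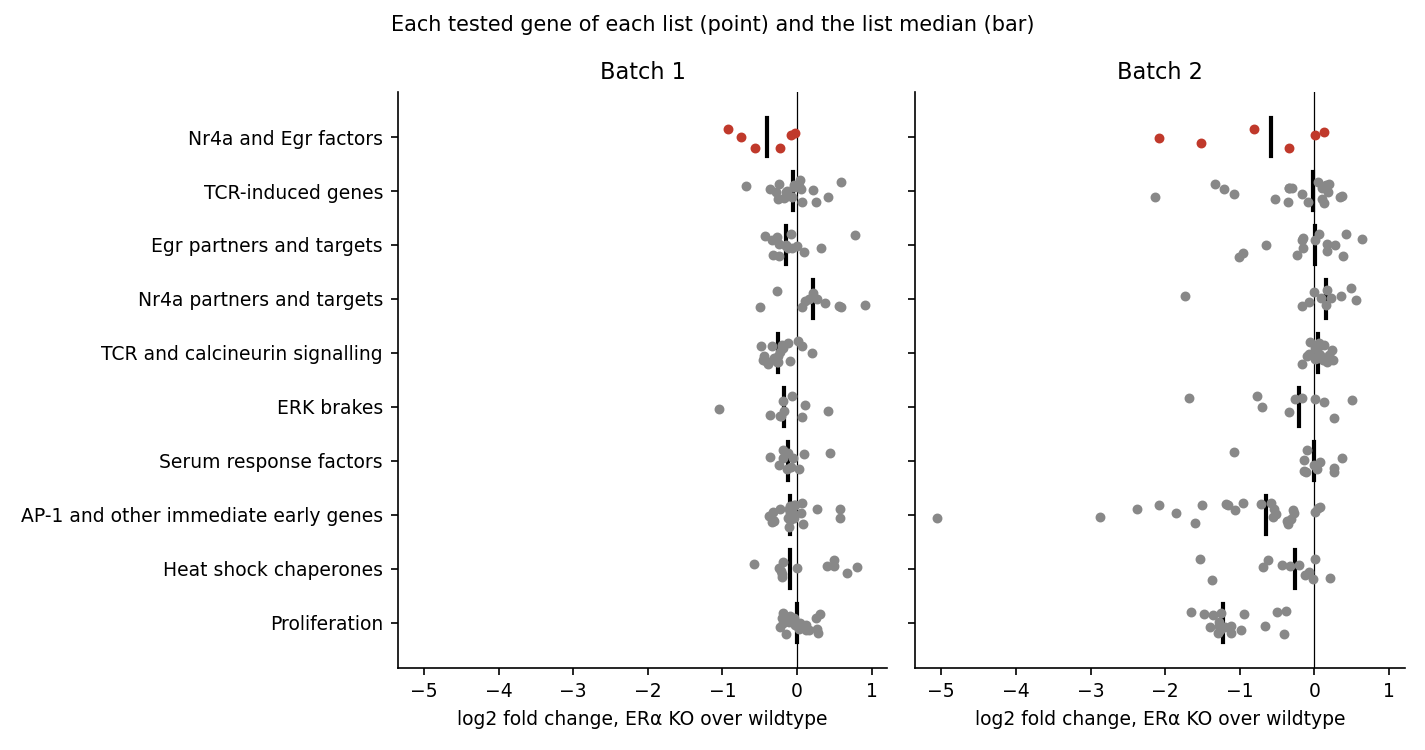
Fitted log2 fold change of ERα KO over wildtype (x axis) of each tested gene (points) and the median (bars) for the 6 NR4A and EGR genes (red) and 9 gene lists (grey), in batch 1 and batch 2. The TCR-induced list is centred near 0 in both batches (-0.06 and -0.02), while the AP-1 and proliferation lists lie below 0 in batch 2 (-0.65 and -1.23) and near 0 in batch 1.

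The immediate early genes that tracked Nr4a1 between libraries are given by genotype next. Of 24 AP-1 and other immediate early genes, 22 had a negative fold change over both batches, with a median of -0.37. The median was -0.09 in batch 1 and -0.65 in batch 2, where 12 of 24 had an unadjusted p under 0.05, all lower (4.97% of all genes). DESeq2 called 9 of 24 lower in batch 2 (1.69% of all genes): Fos, Fosb, Jun, Junb, Atf3, Ier2, Btg2, Dusp1 and Klf4. Csrnp1 had -0.46 ± 0.16, the mRNA decay factor Zfp36 -0.28 ± 0.13 and Nfkbiz -0.27 ± 0.13 over both batches.

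Fos, looked at after its values were known, had 161 and 181 CPM in ERα KO replicates 1 and 2 and 46.6 CPM in replicate 3, against 135 and 98.9 CPM in wildtype replicates 1 and 2. Fosb likewise had 152, 288 and 58.2 CPM in ERα KO against 123 and 86.9 CPM in wildtype libraries of batch 1. Fos and Fosb do not stand for their list, of which 18 of 24 had a negative and 6 a positive log2 fold change in batch 1. In batch 2 Fos was at 31.5 and 33.9 CPM in ERα KO against 193 and 80.3 CPM in wildtype libraries, on the same side as Nr4a1. The summed level of the 24 genes was 5698 to 8268 CPM in ERα KO against 7054 to 7381 CPM in wildtype libraries of batch 1, and 4873 to 5153 against 6019 to 8218 CPM in batch 2. Their part in the values of the NR4A and EGR genes was not tested.

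Other lists also had lower values in the ERα KO libraries of batch 2. Proliferation genes had negative fold changes for 18 of 18 over both batches (median -0.47, with 0.00 in batch 1 and -1.23 in batch 2). DESeq2 called 11 of 18 lower in batch 2 (1.69% of all genes): Top2a, Ccna2, Ccnb1, Cdk1, Birc5, Bub1, Kif11, Tpx2, Nusap1, Rrm2 and Tk1. Nusap1 had -0.70 ± 0.37, Mki67 -0.74 ± 0.40 and Pcna -0.24 ± 0.15 over both batches. Their summed level was 954 to 1359 CPM in ERα KO against 1941 to 3421 CPM in wildtype libraries of batch 2, and 739.8 to 1159 against 573 to 1116 CPM in batch 1. Heat shock chaperones (12) had a median of -0.16, with Hspe1 at -0.32 ± 0.19, Hspa5 at -0.28 ± 0.23 and Hsp90aa1 at -0.38 ± 0.33, and DESeq2 called Hspa1a and Hspa1b lower in batch 2. Their summed level was 3472 to 13020 CPM in ERα KO against 7219 to 7809 CPM in wildtype libraries of batch 1, and 7096 to 8521 against 9442 to 13880 CPM in batch 2.

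Markers of other cells differed between libraries, and several of their sums did not overlap between genotypes. Neutrophil markers (10) summed to 808.5 to 1305 CPM in ERα KO against 342 to 1018 CPM in wildtype libraries of batch 1, and to 6.94 to 10.6 against 27.3 to 239 CPM in batch 2. Monocyte and macrophage markers (9) summed to 209.5 to 307 against 109 to 276 CPM in batch 1 and to 134 to 168 against 199 to 332 CPM in batch 2. Of the erythroid and platelet markers (8), the sum was 1823 CPM in wildtype replicate 3 and 5.48 to 141 CPM in the other libraries. B cell markers (7 of 9 in the table) summed to 52.1 to 98.4 CPM in ERα KO against 55.2 to 70.3 CPM in wildtype libraries of batch 1 and to 9.59 to 13.8 against 6.29 to 13.5 CPM in batch 2. NK cell markers (7) summed to 59.6 to 69.4 CPM in ERα KO against 52.6 to 52.7 CPM in wildtype libraries of batch 1, without overlap, and to 55.5 to 60.5 against 59.5 to 62.5 CPM in batch 2. CD8 T cell markers (2) summed to 9.71 to 12.8 against 14.96 to 18.88 CPM in batch 1 and to 10.6 to 10.9 against 11.2 to 11.5 CPM in batch 2, lower in ERα KO without overlap in both. Dendritic cell markers (8) summed to 24.5 to 44.4 against 13.4 to 28.2 CPM in batch 1 and to 2.93 to 3.81 against 6.13 to 9.997 CPM in batch 2, again ERα KO first, without overlap in batch 2. In batch 2 the ERα KO libraries thus had lower neutrophil, monocyte, dendritic and CD8 T cell sums than wildtype, and higher CD4 T cell sums. In batch 1 they had lower CD8 and CD4 T cell sums and higher NK cell sums, each without overlap. The NK and CD8 sums do not stand for all their markers. In batch 1, 3 NK cell markers had a positive and 4 a negative fitted log2 fold change, with a median of -0.10. Of the 2 CD8 T cell markers, 1 was positive and 1 negative. The part of these cells in the levels of the 6 genes was not tested.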

How the data were processed

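RNA from 9 libraries of CD4+ T cells was analysed. Per the labels' protocols, an Ovation kit was used for the libraries and reads were single-end. The submitters' processing notes name GRCm39, Salmon 1.2.0 and R 4.0.3 but give no role to any. The authors deposited 1 table of estimated counts for 39253 genes, per the file headers. Nonzero values were all fractional, and whether transcript length entered them cannot be told apart. They were rounded to whole numbers and called counts. The sources used here give neither the strand setting nor the annotation. Depth limits little for the 6 genes (at least 64 counts), and a floor of 3 counts was 0.043 to 0.609 CPM.

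Fits used edgeR 4.0.16 in R 4.3.3 (quasi-likelihood test, robust, TMM scaling, filter with minimum count 10 and total 15), with Benjamini-Hochberg adjustment over all genes and a threshold of 0.05, over both batches with a batch term, within each batch, for the interaction and for batch. SEs were derived from the F statistic. Alternatives were DESeq2 1.42.0, limma-voom 3.58.1, upper-quartile scaling, other filters, no batch term, a replicate block and leaving out libraries. CPM in the text uses library totals. Deviations used log2(CPM + 1).

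The members, the 9 pathway lists and the 8 marker lists were chosen with earlier results of these data known. Genes named are the 6 members, Esr1, the 3 genes of each pathway list with the smallest p over both batches, any gene of those lists called by genotype, and the 8 genes most alike in deviation, leaving out predicted, clone, pseudogene and receptor-segment names. Other genes were picked once their values were known, which is stated beside them, or are DESeq2 calls. The denominator of the count ratios was picked likewise. Promoter windows came from a RefSeq table, which matched 4 of the 6 genes. Gene coordinates of the counted build were not used here.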

Additional observations from a re-analysis of the deposited data

Results flagged for a closer look

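Of 62 groups of 4 or 5 libraries examined for a library far from the others, 2 stood out. A rate of 1 in 20 groups would give 3.1. Each group held the libraries of a genotype from both batches, and many groups shared genes, so 3.1 is only a rough guide. The summed level of the 8 erythroid and platelet markers was 1823 CPM in wildtype replicate 3, against 97.2 CPM in the next highest wildtype library and 5.48 CPM in the lowest. The gap was 0.95 of the range. This is also the wildtype library of batch 2 with the higher Nr4a1, Nr4a2, Nr4a3 and Egr1 levels. Without it the batch 2 log2 fold change was -0.80 for Nr4a1, -0.48 for Nr4a3 and -0.20 for Egr1, and the part of blood cells in these levels was not tested. The ratio of Egr1 to Egr2 counts was 6.05 in ERα KO replicate 3 and 6.95 to 7.03 in the other ERα KO libraries, with a gap of 0.914 of the range. It was the ERα KO ratio farthest from the 8.03 to 10.3 of wildtype libraries.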

How the results depend on the processing

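Directions of Nr4a1, Nr4a3 and Egr1 in the genotype fits were negative in all 37 alternatives run. Over both batches the log2 fold change ranged from -1.31 to -0.54 for Nr4a1, -1.46 to -0.63 for Nr4a2, -0.97 to -0.54 for Nr4a3 and -0.55 to -0.27 for Egr1, and it took both signs for Egr2 and Egr3. The Nr4a1 value of -0.54 came from the fit with a replicate block. For numbers 1 to 4, r of deviations between the genotypes was 0.181, -0.249, -0.201 and -0.205. This cannot decide whether replicate numbers pair the libraries, because deviations in a group of 2 mirror each other. Number 3 also joins libraries of different batches. In batch 2 the groups share 1 number, so no blocked fit was made there. The block gave 1 call over both batches and 58 in batch 1. Over both batches 1 gene was called, with DESeq2 16, without a filter 2, without the batch term 0 and leaving out a library 0 to 3 (0, 2 and 3 without wildtype replicates 1, 2 and 4). Batch 1 gave 31 calls (18 higher), with upper-quartile scaling 6 (1 higher), without a filter 68, with limma-voom 12 and leaving out a library 33 to 118 (61 without wildtype replicate 1, 118 without wildtype replicate 2). Batch 2 gave 0 calls, with 1237 genes at an unadjusted p under 0.05, 329 with DESeq2, 34 without a filter and 0 to 879 leaving out a library (268 without wildtype replicate 3, 879 without wildtype replicate 4). The interaction gave 1 call, with DESeq2 165, without a filter 2, with limma-voom 0 and leaving out a library 1 to 238 (2, 13 and 238 without wildtype replicates 2, 3 and 4, and 6 and 2 without ERα KO replicates 3 and 5). The batch term gave 14221 calls (3724 higher), with upper-quartile scaling 12494 (1353 higher), without a filter 25837 and leaving out a library 11456 to 18656. The count of genes with every ERα KO library below every wildtype library in each batch was 3, and 1 with TMM-scaled CPM, an alternative added after the data were seen. It was 3 to 4 leaving out a library. Of the 8 genes most alike in deviation, 2 stayed with Spearman's rho, 3 with TMM-scaled CPM and 1 to 5 leaving out a library. A lone library left in a group was assumed to vary like the other groups, and the cause of these changes was not tested.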
